A study of Homo sapiens with 59 samples.

Results

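The 38 genes described here belong to the cellular response to low oxygen and to glycolysis, and were taken by symbol out of the 19084 gene symbols in the expression table. They comprise 2 glucose transporters, 14 glycolytic enzymes counting lactate dehydrogenase, 4 regulators of glycolytic flux, 6 oxygen-dependent hydroxylases and demethylases, 4 mitophagy and stress genes, 4 secreted or surface proteins and 4 other hypoxia targets. Messenger RNA was sequenced in 59 libraries of neural stem cells, which were derived from the established human embryonic stem cell line WA09 (H9). All cultures were given 200 ng/mL FGF8b, then the GSK3 inhibitor CHIR99021, which activates WNT signalling, and finally retinoic acid medium that was replaced every day for 4 days before the cells were lysed. The 20 groups differ in the hours of CHIR99021 before the switch to retinoic acid, at steps of 2 h up to 24 h and of 6 h up to 72 h. There are 3 libraries per length of exposure (A1, A2 and B1), and 2 at 48 h. Total time in culture increased with exposure, and the clock times of medium changes and of lysis are not labelled. Cells without CHIR99021 were not analysed here. Whether A1, A2 and B1 came from separate cultures is not stated, so the spread among libraries of the same exposure could be technical alone. The p-values treat each library as independent. Where a smooth curve of hours was fitted, the spread they rest on also holds departures of time points from that curve.

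In low oxygen, the hypoxia-inducible factor HIF is stabilised and switches on genes that let a cell live with less respiration. When oxygen is plentiful, prolyl hydroxylases of the EGLN family mark the HIF alpha subunit for destruction by way of VHL. HIF targets take up more glucose, run glycolysis faster, turn pyruvate into lactate, hold pyruvate back from mitochondria and clear mitochondria, and some of them, such as EGLN3, feed back on HIF itself. Stem cells and early neural progenitors are known for strong glycolysis, whereas neurons depend more on respiration.

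Values are TPM, the share of a library's transcripts per transcript length, from which sequencing depth cannot be read, and depth is therefore unknown. Differences are given on the log2(TPM + 1) scale, which understates the change of low genes, with their standard error (SE). A gene was called higher or lower where limma's Benjamini-Hochberg adjusted p over 15305 genes tested was under 0.05. All 38 genes were among those tested, but CA9 reached at most 4.22 TPM and was above 0 in 16 of the 59 libraries, and LOX reached at most 7.57 TPM and was above 0 in 32. Between 9348 and 13085 genes stood at 1 TPM or more in a library, and 3 libraries (4 h B1, 42 h B1 and 72 h A2) had under 10000. The neural progenitor genes CDH2, VIM, NES, PAX6, MSI1 and PTPRZ1 were above 0 in all 59 libraries, HES5 in 55 and FABP7 in 51. SOX1 was at a median of 6.19 TPM and SOX2 at 81.2 TPM. Of the epithelial genes, KRT8, KRT19, KRT18 and EPCAM were also above 0 in all 59, with medians of 359, 183, 75.2 and 43.5 TPM. TFAP2A and CDH1 had medians of 7.84 and 2.37 TPM, and ESRP1, CLDN7, GRHL2 and GATA3 of 0 TPM. The defining genes of blood were absent or nearly so, with HBG1 and GATA1 listed at 0 in every library. The endothelial genes CDH5 and TEK were above 0 in 57 libraries each, at medians of 4.0 and 5.06 TPM. The pluripotency genes POU5F1 and NANOG had medians of 11.7 and 1.18 TPM, ZFP42 of 33.8 TPM and DPPA4 of 245 TPM, the last above 0 in all 59 libraries.

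**Figure D1:**
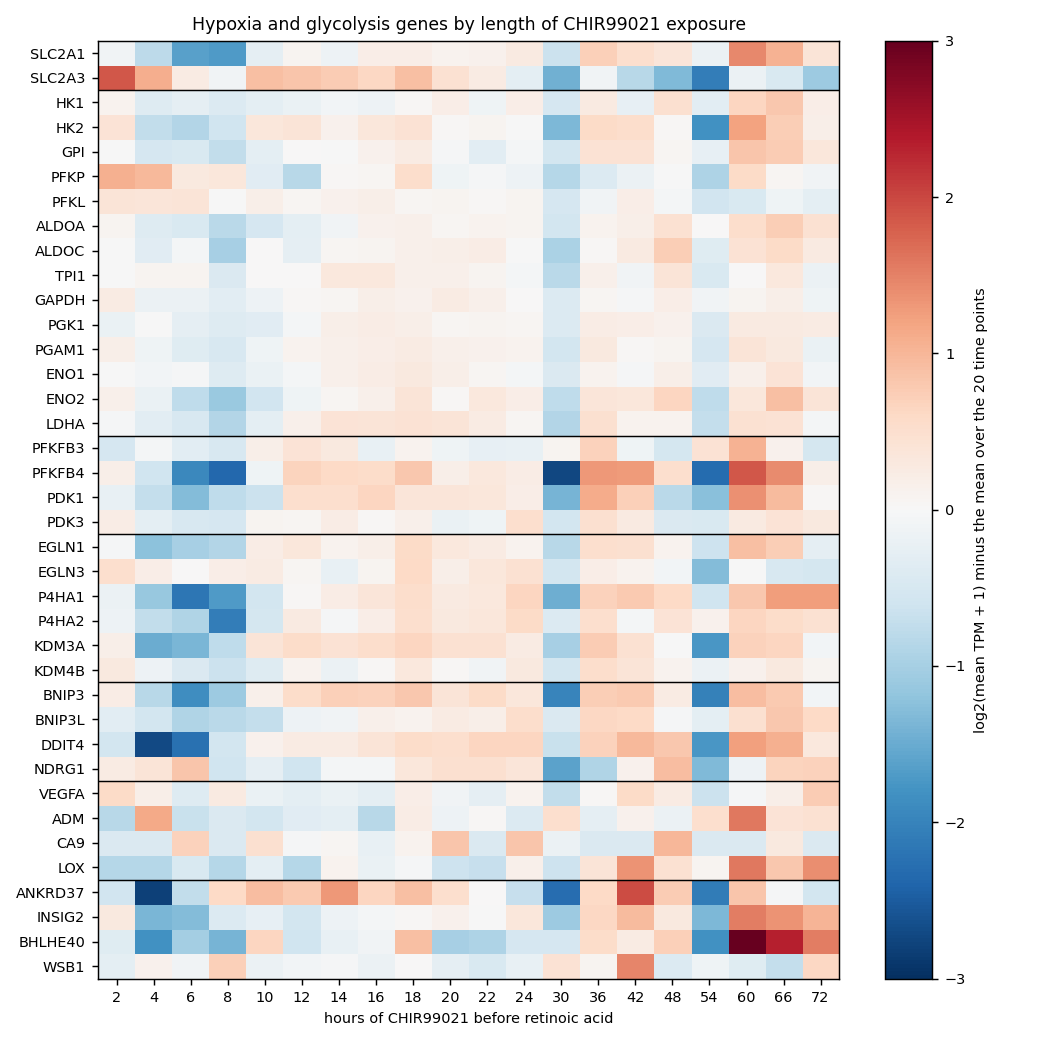
Each row is 1 of the 38 genes, grouped by role, and each column is 1 length of CHIR99021 exposure in hours. Colour gives log2(mean TPM + 1) at a time point minus the gene's mean of that value over the 20 time points (blue below it, red above it), and PFKFB4, P4HA1, KDM3A, BNIP3 and DDIT4 are blue at 4 to 8 h, 30 h and 54 h.

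The levels of these genes did not change evenly with exposure. Most of them were low at 4 to 8 h, higher from 10 h on, low again at 30 h and at 54 h, and higher at the times between. The times 6, 30 and 54 h lie 24 h apart, and they were chosen with results of these same libraries known. The counts and p-values for these times, here and below, are therefore descriptive and not independent evidence. The first comparison set the 9 libraries of these 3 times against the 26 libraries of the 9 other multiples of 6 h, with a smooth curve of hours fitted alongside. Of the 38 genes, 28 were lower at 6, 30 and 54 h and 0 were higher, against 5.07% of all genes tested that were lower and 8.98% that were higher. Their median difference was -0.76, and that of all genes tested was 0.05. The summed level of the 38 genes was 12506 to 16433 TPM at 6, 30 and 54 h, with a median of 13820 TPM, and 14528 to 25406 TPM at the other multiples, with a median of 21784 TPM. In bulk RNA, fewer cells of a type and less RNA per cell cannot be told apart.

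The largest difference was in PFKFB4, an enzyme that sets the level of a sugar phosphate controlling phosphofructokinase. PFKFB4 was at 2.72 TPM in the lowest, 6.21 TPM in the median and 12.3 TPM in the highest library of 6, 30 and 54 h, and at 14.8, 63.2 and 154 TPM at the other multiples. The groups did not overlap, and the difference was -3.60 (SE 0.26), a level 12.1 times lower on that scale, with a limma adjusted p of 9.96e-12. ANKRD37, which encodes an ankyrin repeat protein and is a known HIF target, was at 0, 5.52 and 19.2 TPM at 6, 30 and 54 h and at 0, 30.5 and 146 TPM at the other multiples. Its groups overlapped, and the difference was -3.48 (SE 0.56; limma adjusted p = 4.2e-05).

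BNIP3, a receptor on mitochondria that marks them for autophagy, was at 48.3, 64.9 and 81.4 TPM at 6, 30 and 54 h and at 126, 383 and 561 TPM at the other multiples. Every low-time library lay below every other one, and the difference was -2.68 (SE 0.15; limma adjusted p = 2.8e-14). DDIT4, an inhibitor of the growth kinase mTOR that many stresses induce, was at 79.9, 134 and 391 TPM at 6, 30 and 54 h and at 412, 740 and 1155 TPM at the other multiples. Its groups were also apart, with a difference of -2.10 (SE 0.17; limma adjusted p = 1.29e-10). An antisense gene lies opposite DDIT4, and the sources used here do not give the strand setting of the counting, so reads of that gene could add to the DDIT4 values.

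The promoters of these 4 genes are printed because theirs were the largest differences in this comparison. The windows run from 250 bases before to 50 bases after the start of the RefSeq transcript in GRCh38.p14, 5′ to 3′ on the strand of the gene. Capitals mark ACGTG or GCGTG, the core letters that HIF binds, read on either strand (as CACGT or CACGC where they lie on the other strand).
PFKFB4: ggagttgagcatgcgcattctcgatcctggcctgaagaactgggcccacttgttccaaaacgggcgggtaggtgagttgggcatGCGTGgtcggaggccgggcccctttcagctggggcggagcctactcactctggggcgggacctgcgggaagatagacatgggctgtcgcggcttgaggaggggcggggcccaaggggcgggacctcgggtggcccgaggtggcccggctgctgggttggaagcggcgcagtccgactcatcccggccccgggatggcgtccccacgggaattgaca
ANKRD37: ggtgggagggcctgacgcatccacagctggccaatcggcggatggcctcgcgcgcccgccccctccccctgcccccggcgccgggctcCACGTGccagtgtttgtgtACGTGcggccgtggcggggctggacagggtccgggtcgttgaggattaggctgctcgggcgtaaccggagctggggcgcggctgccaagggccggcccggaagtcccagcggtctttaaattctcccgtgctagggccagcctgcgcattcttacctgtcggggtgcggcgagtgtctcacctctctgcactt
BNIP3: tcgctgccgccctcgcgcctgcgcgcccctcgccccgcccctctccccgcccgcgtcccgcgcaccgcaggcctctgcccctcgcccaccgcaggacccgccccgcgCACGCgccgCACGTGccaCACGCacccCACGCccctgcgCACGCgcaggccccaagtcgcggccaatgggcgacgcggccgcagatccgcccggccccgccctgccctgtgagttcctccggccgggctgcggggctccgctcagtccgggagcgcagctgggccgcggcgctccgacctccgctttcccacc
DDIT4: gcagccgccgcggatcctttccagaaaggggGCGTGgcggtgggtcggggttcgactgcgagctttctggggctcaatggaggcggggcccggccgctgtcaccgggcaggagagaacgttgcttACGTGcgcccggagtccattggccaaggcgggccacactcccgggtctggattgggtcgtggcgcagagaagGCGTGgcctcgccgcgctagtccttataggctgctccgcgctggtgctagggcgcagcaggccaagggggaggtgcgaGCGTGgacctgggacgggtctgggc
The PFKFB4 window (chr3:48556754-48557053, minus strand) has 1 GCGTG, starting 166 bases before the start, and no ACGTG. The ANKRD37 window (chr4:185396591-185396890, plus strand) has the palindrome CACGTG, which holds ACGTG on both strands, 162 bases before the start and another ACGTG 143 bases before it. The BNIP3 window (chr10:131981874-131982173, minus strand) has CACGTG 134 bases before the start, among 4 GCGTG on the other strand. The DDIT4 window (chr10:72273674-72273973, plus strand) has ACGTG 125 bases before the start and 3 GCGTG.

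RefSeq windows were found for 34 of the 38 genes. ACGTG on either strand was in a window of 24 of these 34 genes (70.6%), against 31.4% of the 11105 genes tested that have a window. A gene can have several windows. Counted by window, ACGTG was in 30 of the 54 windows of these genes (55.6%) and in 21.4% of all 35116 windows. GCGTG was in 20 of the 34 (58.8%), near the 56.4% of genes tested. CACGTG, each of which is also counted as ACGTG, was in 11 of the 34 (32.4%), against 12.2% of genes tested. Within the 34, ACGTG did not separate the genes that were lower from those without a call: it was in 17 of 24 lower genes (70.8%) and in 7 of 10 genes without a call (70.0%). A match of letters is a description of the window and not a bound site.

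**Figure D2:**
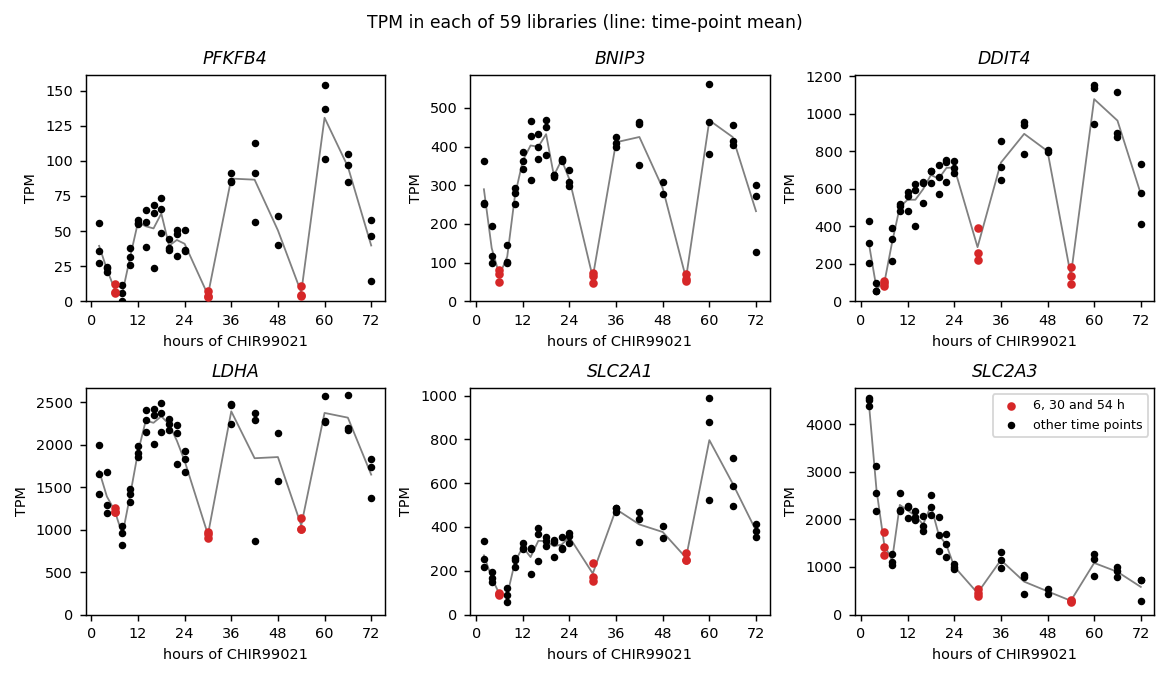
TPM per library against hours of CHIR99021 for PFKFB4, BNIP3, DDIT4, LDHA, SLC2A1 and SLC2A3, with the libraries of 6, 30 and 54 h in red. PFKFB4, BNIP3 and DDIT4 are low at 6, 30 and 54 h, at most 12.3, 81.4 and 391 TPM, with DDIT4 higher at 30 h than at 54 h. SLC2A3 falls along the course as well.

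Both glucose transporters were lower at the low times. SLC2A1, the widespread carrier of basal glucose uptake, was at 88.1, 172 and 280 TPM at 6, 30 and 54 h (lowest, median and highest library) and at 297, 395 and 989 TPM at the other multiples. These groups did not overlap, and the difference was -1.17 (SE 0.12; limma adjusted p = 4.14e-08). SLC2A3, the high-affinity carrier of neural tissue, was at 263, 447 and 1743 TPM and at 289, 986 and 2510 TPM. Its groups overlapped widely, its level also changed over the course, and the difference with the curve fitted was -1.27 (SE 0.19; limma adjusted p = 1.56e-05). SLC2A3 has a near-identical paralog, SLC2A14, so its reads were apportioned by estimation and its level is uncertain.

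Of the 14 glycolytic enzymes, 11 were lower and 3 (HK1, PFKP and GAPDH) did not pass. HK2, the inducible hexokinase that traps glucose in the cell, was at 19.9, 35.3 and 48.7 TPM at 6, 30 and 54 h and at 66.2, 118 and 232 TPM at the other multiples. There was no overlap, and the difference was -1.96 (SE 0.18; limma adjusted p = 1.31e-09). HK1, the constitutive hexokinase, differed by -0.25 (SE 0.47; limma adjusted p = 0.797). It was listed at 0 in 42 h B1, and without the 3 thin libraries it passed, at -0.68 (limma adjusted p = 0.00019). ENO2, the neuronal enolase, was at 75.7, 90.2 and 114 TPM and at 133, 209 and 353 TPM, a difference of -1.07 (SE 0.13; limma adjusted p = 3.19e-07) without overlap. ENO1, the widespread enolase and the most abundant of the 38 genes by its median level of 4957 TPM over all 59 libraries, differed by only -0.41 (SE 0.12; limma adjusted p = 0.0175).

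LDHA, which turns pyruvate into lactate, was at 902, 1009 and 1260 TPM at 6, 30 and 54 h and at 864, 2162 and 2583 TPM at the other multiples. The difference was -0.99 (SE 0.13; limma adjusted p = 1.9e-06), and without the 42 h B1 and 72 h A2 libraries the groups did not overlap. The other enzymes called lower lay between -0.37 for PFKL, the liver-type phosphofructokinase, and -0.76 for ALDOC, an aldolase of brain. In between stood GPI at -0.75, PGAM1 at -0.69, TPI1 at -0.61, PGK1 at -0.52 and ALDOA at -0.50. These catalyse consecutive or near-consecutive steps of the pathway, and their estimates were nearer 0 than those of HK2, ENO2 and LDHA. GAPDH, often used as a reference gene, was at 3067, 3590 and 4140 TPM and at 2105, 4363 and 5246 TPM, a difference of -0.31 (SE 0.12) that did not pass (limma adjusted p = 0.0688). PFKP, the platelet-type phosphofructokinase, differed by -0.53 (SE 0.22; limma adjusted p = 0.109). GAPDH, PGK1, LDHA, TPI1, ENO1, ALDOA and PGAM1 have many processed pseudogenes, so their levels are uncertain in the same way as that of SLC2A3.

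Of the 4 regulators of glycolytic flux, 3 were lower. PDK1, a kinase that inhibits pyruvate dehydrogenase and so keeps pyruvate out of mitochondria, was at 18.3, 31.1 and 39.4 TPM at 6, 30 and 54 h and at 37.1, 107 and 207 TPM at the other multiples. The groups overlapped only at one end, and the difference was -1.96 (SE 0.24; limma adjusted p = 4.79e-07). PDK3, a related kinase, differed by -0.66 (SE 0.15; limma adjusted p = 0.00191). PFKFB3, an enzyme of the same family as PFKFB4, differed by -0.10 (SE 0.22; limma adjusted p = 0.831), with 37.4, 51.1 and 69.7 TPM at 6, 30 and 54 h and 25.5, 57.3 and 148 TPM at the other multiples. The difference between PFKFB4 and PFKFB3 was not tested.

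Of the 6 hydroxylases and demethylases, 5 were lower. P4HA1, a catalytic subunit of the enzyme that hydroxylates collagen, was at 47.7, 90.5 and 210 TPM at 6, 30 and 54 h and at 279, 459 and 784 TPM at the other multiples. There was no overlap, and the difference was -1.84 (SE 0.11; limma adjusted p = 3.69e-14). KDM3A, a histone demethylase, was at 20.1, 31.1 and 44.6 TPM and at 57.2, 122 and 165 TPM, also apart, with a difference of -1.86 (SE 0.15; limma adjusted p = 1.71e-10). Of the oxygen-sensing hydroxylases of HIF, EGLN1 differed by -1.27 (SE 0.20; limma adjusted p = 2.29e-05) and EGLN3 by -0.86 (SE 0.14; limma adjusted p = 4.19e-05). KDM4B, another histone demethylase, differed by -0.65 (SE 0.14; limma adjusted p = 0.00126). P4HA2, a paralog of P4HA1, differed by -0.43 (SE 0.44) and did not pass (limma adjusted p = 0.596), but did without the 3 thin libraries, at -0.77 (limma adjusted p = 0.00155).

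All 4 mitophagy and stress genes were lower, BNIP3 and DDIT4 by the amounts above. BNIP3L, a second mitophagy receptor, was at 139, 188 and 255 TPM at 6, 30 and 54 h and at 228, 382 and 516 TPM at the other multiples, a difference of -0.75 (SE 0.10; limma adjusted p = 2.94e-06). NDRG1, a stress-induced protein, differed by -1.04 (SE 0.32; limma adjusted p = 0.0262). Its 9 values ran from 6.58 to 82.4 TPM, with the 3 libraries of 6 h above those of 30 and 54 h.

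Of the secreted and surface proteins, VEGFA, the main growth factor for blood vessels, was the 1 of 4 that passed, with 23.8, 31.0 and 42.8 TPM at 6, 30 and 54 h and 27.5, 52.1 and 134 TPM at the other multiples, a difference of -0.71 (SE 0.18; limma adjusted p = 0.00634). ADM, a vasodilator peptide, differed by 0.25 (SE 0.25; limma adjusted p = 0.593). CA9, a carbonic anhydrase of the cell surface, and LOX, an enzyme that crosslinks collagen, stood at medians of 0 TPM at 6, 30 and 54 h, and their differences of -0.13 and -0.78 did not pass (limma adjusted p = 0.835 and 0.123). Of the other 4 targets, ANKRD37 and INSIG2 passed. INSIG2, a protein of the endoplasmic reticulum that restrains cholesterol synthesis, was at 13.3, 26.5 and 41.7 TPM and at 32.6, 100.2 and 215 TPM, a difference of -1.73 (SE 0.22; limma adjusted p = 6.59e-07). BHLHE40, a transcriptional repressor, differed by -1.69 (SE 0.62) and did not pass (limma adjusted p = 0.0656), and WSB1, an adaptor of a ubiquitin ligase, differed by 0.20 (SE 0.32; limma adjusted p = 0.762).

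**Figure D3:**
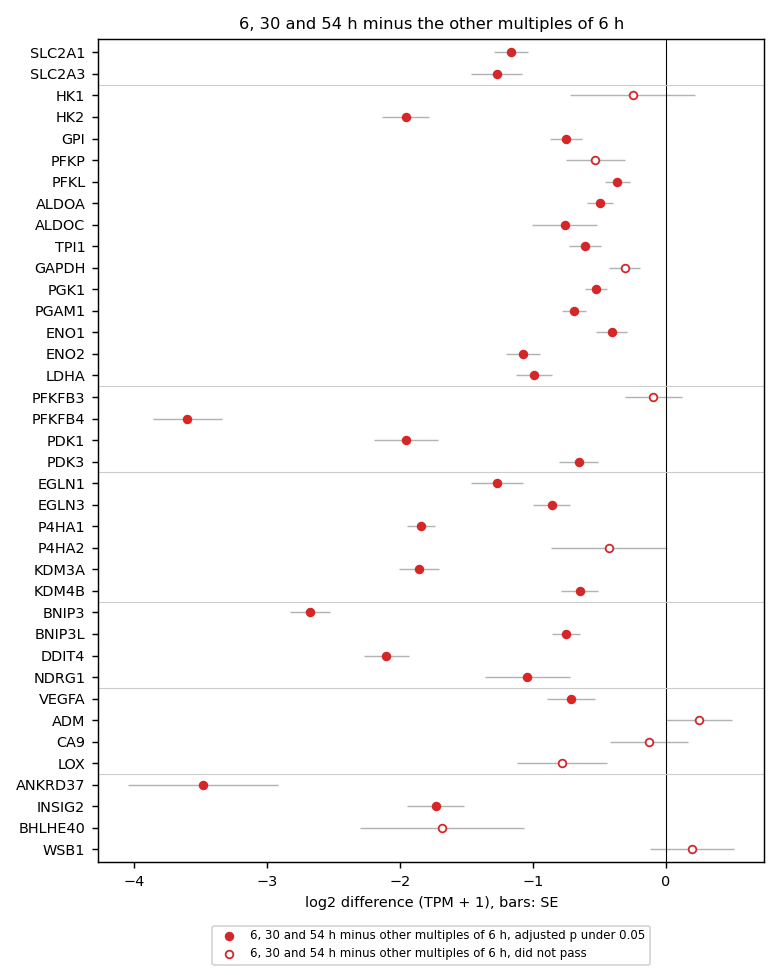
Points give the log2(TPM + 1) difference of 6, 30 and 54 h minus the other multiples of 6 h for each of the 38 genes by role, and bars give the SE. Filled points are the 28 genes with an adjusted p under 0.05, all of them below 0, from -3.60 for PFKFB4 to -0.37 for PFKL.

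In 8 of the 38 genes, SLC2A1, HK2, ENO2, PFKFB4, P4HA1, KDM3A, BNIP3 and DDIT4, every library of 6, 30 and 54 h lay below every library of the other multiples, as in 25 of all genes tested (0.163%). Without the 42 h B1 and 72 h A2 libraries, which had few genes at 1 TPM or more, this held for 12 of the 38 and for 42 of all genes tested (0.274%). The 3 lowest of the 12 time-point means were those at 6, 30 and 54 h in 21 of the 38 genes, against 3.20% of genes tested. Without the 3 thin libraries, HK1, GAPDH, P4HA2 and BHLHE40 also passed, making 32 lower, while 1324 of all genes tested were lower in place of 776. Of the 28 calls, 19 passed under all 16 alternatives to this comparison, and those of ALDOA, ALDOC, ENO1, KDM4B, NDRG1, PDK3, PFKL, TPI1 and VEGFA did not pass under every one. Over all genes, 1374 were higher and 776 lower as deposited, 1096 and 1154 with quantile normalization, and 1080 and 1182 with median-ratio scaling. No gene of the 38 that was called changed sign under any alternative, in this or the later comparisons.

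Other features of the libraries were read at the same times, and only some of them differed. The 100 highest genes took 23.6% to 27.4% of the TPM at 6, 30 and 54 h and 25.3% to 37.3% at the other multiples. The medians of that share were 24.8% and 28.3%. The number of genes at 1 TPM or more was 11683 to 12854 and 9348 to 12857, with medians of 12591 and 12536.5. Of the 10 neural progenitor markers, NES was higher by 0.67, and SOX2, VIM and PAX6 were lower, by -0.64, -0.40 and -0.31, while the summed level of the 10 was 3037 to 3641 TPM at 6, 30 and 54 h and 2195 to 4036 TPM at the other multiples. The 10 neuron markers summed to 292 to 437 TPM and to 222 to 577 TPM, with MAP2 lower by -0.53 and none higher. The 10 epithelial markers summed to 257 to 1424 TPM and to 347 to 1169 TPM, with KRT19 lower by -1.79 and GATA3 higher by 0.72. The 10 pluripotency markers summed to 209 to 379 TPM and to 216 to 819 TPM, with DPPA4 lower by -0.41, and none of the endothelial, blood or mesodermal markers passed. Median sums, in the same order of times, were 3403 and 3489 TPM for progenitor markers and 318 and 311 TPM for pluripotency markers. They were 384 and 458 TPM for neuron markers and 457 and 517 TPM for epithelial markers. The part of these features in the differences was not tested.

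A list of 16 genes of the HIF machinery, which does not hold EGLN1 and EGLN3, was read in the same comparison. HIF1A, the alpha subunit that oxygen controls through protein stability, was at 204, 261 and 299.8 TPM at 6, 30 and 54 h and at 60.7, 237 and 343 TPM at the other multiples, a difference of 0.08 (SE 0.16; limma adjusted p = 0.803). ARNT, its partner subunit, differed by -0.44 (SE 0.33; limma adjusted p = 0.432). Of the 16, HIF1AN, an asparagine hydroxylase that restrains HIF, passed with a difference of 0.41 (SE 0.12; limma adjusted p = 0.0208), and none of the 16 was lower. That is 6.25% higher, near the 8.98% of all genes tested, of which 5.07% were lower. With 16 genes these counts do not set the list apart from all genes. Protein was not measured.

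Of 34 other genes of the hypoxia response, 16 were lower (47.1%) and 2 higher (5.88%), against 5.07% and 8.98% of all genes tested. SLC16A3, which exports lactate, was at 15.3, 17.4 and 49.3 TPM at 6, 30 and 54 h and at 53.0, 199 and 365 TPM at the other multiples, a difference of -2.76 (SE 0.22; limma adjusted p = 1.05e-10). STC1, a secreted glycoprotein hormone, differed by -2.58 and FAM162A by -1.82. TFRC, the receptor for transferrin-bound iron, went the other way, with 101, 139 and 175 TPM and 18.7, 42.0 and 73.5 TPM. Its groups did not overlap, and the difference was 1.83 (SE 0.16; limma adjusted p = 5.5e-10). The other gene that was higher, named after its value was seen, was HMOX1, haem oxygenase, with a difference of 1.35 (SE 0.36; limma adjusted p = 0.00824).

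Of 34 other genes of glycolysis, pyruvate handling and the pentose phosphate pathway, 30 could be tested. Of these 30, 2 were lower (6.67%) and 5 higher (16.7%), against 5.07% and 8.98% of all genes tested. SLC16A1, a carrier of lactate and pyruvate like SLC16A3, was at 295, 410 and 449 TPM at 6, 30 and 54 h and at 141, 211 and 249 TPM at the other multiples, without overlap, a difference of 0.84 (SE 0.09; limma adjusted p = 5.13e-08). TIGAR, a phosphatase that lowers glycolytic flux, differed by 1.15, and RPIA, an isomerase of the pentose phosphate pathway, by 0.88. PGM1, which links glycogen to glycolysis, differed by -0.61. The remaining 3, named after their values were seen, were PKM, pyruvate kinase, at -0.57, DLAT, a subunit of pyruvate dehydrogenase, at 0.58, and RPE, an epimerase of the pentose phosphate pathway, at 0.44. The median difference over the 30 was -0.01.

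Each low time was then compared with its own neighbours, so that the 3 comparisons share no library with each other, though all of them share libraries with the one above. At 30 h, against 24 and 36 h, 24 of the 38 genes were lower and 0 higher, against 1.95% and 2.55% of all genes tested. At 54 h, against 48 and 60 h, 24 were lower and 0 higher, against 1.81% and 6.54% of all genes tested. Counting both directions, 1001 of all genes tested were higher and 277 lower at 54 h as deposited, 669 and 508 with quantile normalization, which moved the median of all genes by -0.14, and 590 and 579 with median-ratio scaling, which moved it by -0.20. The median difference of the 38 genes at 54 h was -0.96. The split at 30 h was 390 higher and 298 lower as deposited, 366 and 439 with quantile normalization, and 348 and 398 with median-ratio scaling. At 6 h, against 12 h alone, 10 of the 38 were lower and 1 higher, and 0.954% of all genes tested were lower and 0.699% higher. In all 3 of these comparisons 9 genes were lower, SLC2A1, HK2, PFKFB4, PDK1, EGLN1, P4HA1, KDM3A, BNIP3 and DDIT4, as were 0.222% of all genes tested. With the A1 libraries left out, 13 genes were called at 54 h, and with the B1 libraries left out 7 were called at 6 h. Of the 9, EGLN1 lost its call under at least 1 of 11 alternatives at each of the 3 times, and HK2 and PFKFB4 at 6 h. At both 30 and 54 h 20 of the 38 were lower, as were 0.745% of all genes tested. At 6 h 5 of the 10 epithelial markers were higher, CDH1 by 2.81, ESRP1 by 3.15, CLDN7 by 2.63, EPCAM by 1.39 and KRT8 by 1.10, with sums of 1400 to 1424 TPM at 6 h and 652 to 842 TPM at 12 h, while STMN2 of neurons and PTPRZ1 of progenitors were lower by -2.81 and -1.12. At 30 h and at 54 h KRT19 was the 1 epithelial marker called, lower by -1.74 and -2.42, and MAP2 the 1 neuron marker, lower by -0.84 and -0.51. The part of these markers was not tested.

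BNIP3 shows how alike the low times could be. It was at 70.0, 81.4 and 50.4 TPM in the A1, A2 and B1 libraries of 6 h, against 341, 364 and 386 TPM in the libraries of 12 h in order of size. The libraries of 30 h had 64.9, 72.6 and 48.3 TPM, and those of 24 and 36 h had 299, 340, 307, 425, 399 and 410 TPM. The libraries of 54 h had 56.4, 70.6 and 51.3 TPM, and those of 48 and 60 h had 278, 307, 380, 463 and 561 TPM. The 3 differences were -2.44, -2.54 and -2.62 (limma adjusted p = 4.87e-10, 9.84e-13 and 3.29e-13 for 6, 30 and 54 h). Every library of a low time lay below every library of its neighbours. PFKFB4 differed by -2.65, -3.55 and -3.60 at 6, 30 and 54 h, and KDM3A, with 31.1, 40.9 and 24.0 TPM in the median library, by -1.92, -1.49 and -2.09.

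PFKP, NDRG1 and BHLHE40 had the following values at single times. PFKP was at 81.2, 94.7 and 103 TPM at 6 h, against 28.3, 39.2 and 57.1 TPM at 12 h, and was the 1 gene of the 38 that was higher there, by 1.19 (SE 0.24; limma adjusted p = 0.00311). At 54 h it was at 31.9, 34.9 and 51.1 TPM, against 70.6 to 120 TPM at 48 and 60 h, and was lower by -1.23 (SE 0.22; limma adjusted p = 0.00013). NDRG1 was at 64.7, 66.7 and 82.4 TPM at 6 h, against 23.0, 25.6 and 29.4 TPM at 12 h, a difference of 1.42 that did not pass (limma adjusted p = 0.251), and was lower at 54 h by -1.75 (limma adjusted p = 0.0144). BHLHE40 was at 0, 0.30 and 0.60 TPM at 54 h, against 5.90 to 56.4 TPM at 48 and 60 h, a difference of -3.86 (SE 0.80; limma adjusted p = 0.000843), and at 30 h it differed by -0.53 (SE 0.77; limma adjusted p = 0.829). Its change at 54 h minus that at 30 h was -3.32 (SE 1.11) and did not pass (limma adjusted p = 0.545). The calls of PFKP at 6 and 54 h and of NDRG1 and BHLHE40 at 54 h were each lost under at least 1 of 11 alternatives. Whether the differences at 6 h and at 54 h were unlike each other was not tested.

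The change at 54 h was tested against that at 30 h, and 1 of the 38 genes passed, with a larger fall at 54 h, against 0.0392% of all genes tested in either direction and 0.0131% in that one. DDIT4 was at 134, 92.3 and 183 TPM at 54 h, against 797 and 806 TPM at 48 h and 944, 1155 and 1138 TPM at 60 h. It was at 257, 391 and 219 TPM at 30 h, against 711, 748 and 684 TPM at 24 h and 854, 647 and 718 TPM at 36 h. All 3 libraries of 54 h lay below all 3 of 30 h, and the 3 libraries of 60 h lay above every library of 24 and 36 h. The change was -2.81 at 54 h and -1.37 at 30 h, and the change at 54 h minus that at 30 h was -1.44 (SE 0.29; limma adjusted p = 0.0327). This call was lost when A1, A2 or B1 was left out and with a pseudocount of 0.1, with a limma adjusted p from 0.00659 to 0.964 over 11 alternatives.

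**Figure D4:**
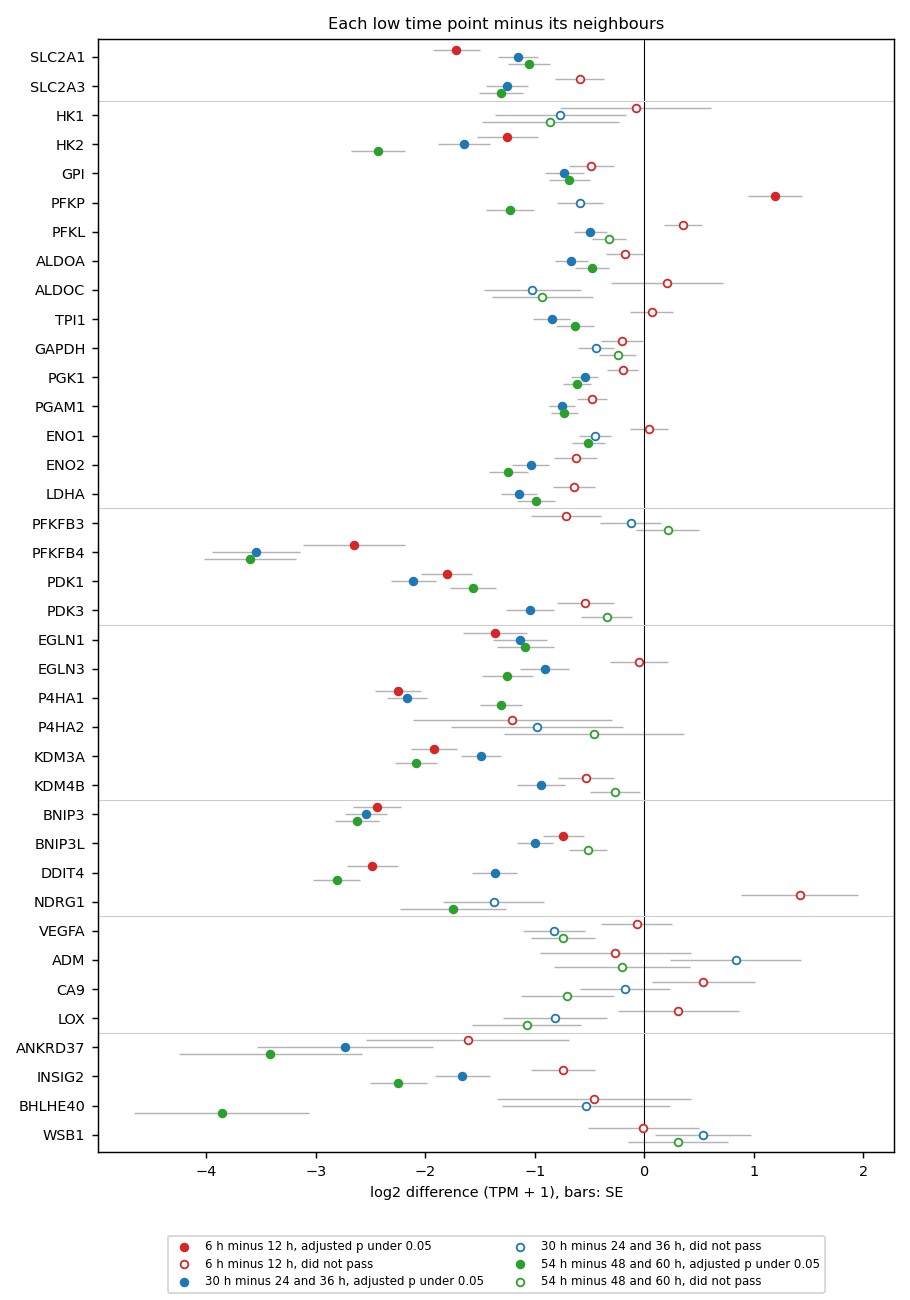
Points give the log2(TPM + 1) difference of 6 h minus 12 h, of 30 h minus 24 and 36 h and of 54 h minus 48 and 60 h for each of the 38 genes, with bars for the SE and filled points for an adjusted p under 0.05. The 24 filled points at 30 h and the 24 at 54 h all lie below 0, and PFKP at 6 h, at 1.19, is the only filled point above it.

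The groups at steps of 2 h on the first day gave levels on both sides of the low times. Each group was lysed after its exposure and 4 days of retinoic acid. The hours are therefore lengths of exposure, and no culture was followed from hour to hour. SLC2A3 was at 4486 ± 91.9 TPM after 2 h, 2623 ± 469 TPM after 4 h, 1467 ± 255 TPM after 6 h, 1141 ± 119 TPM after 8 h and 2306 ± 213 TPM after 10 h (mean ± SD, n = 3 each). BNIP3 was at 290 ± 63.1 TPM after 2 h, 137 ± 50.4 TPM after 4 h, 67.3 ± 15.7 TPM after 6 h, 116 ± 25.9 TPM after 8 h and 274 ± 21.4 TPM after 10 h. DDIT4 was at 314 ± 112 TPM after 2 h, 69.1 ± 23.2 TPM after 4 h, 96.6 ± 15.5 TPM after 6 h, 313 ± 89.4 TPM after 8 h and 504 ± 17.4 TPM after 10 h. The lowest mean thus fell at 4 h for DDIT4, at 6 h for BNIP3 and at 8 h for SLC2A3. KDM3A was lowest at 4 h, with 29.7 ± 7.44 TPM against 32.1 ± 5.82 TPM at 6 h, a gap smaller than the SD. SLC2A1 was lowest at 8 h, with 89.4 ± 32.5 TPM against 93.2 ± 4.55 TPM at 6 h, also within the SD, and PFKFB4 likewise, with 6.00 ± 5.64 TPM against 8.47 ± 3.36 TPM. One of the 3 libraries at 4 h is the thin 4 h B1.

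The 9 libraries of 4 to 8 h were set against the 24 of 10 to 24 h. These times were also chosen with earlier results of these libraries known. On both sides, libraries are shared with the comparison of the low times with the other multiples. The counts and p-values here are therefore descriptive and not independent evidence. Of the 38 genes, 24 were lower and 1, PFKP, was higher, against 10.4% and 7.47% of all genes tested. DDIT4 was at 55.1, 99.4 and 392 TPM (lowest, median and highest library) at 4 to 8 h and at 404, 633 and 753 TPM at 10 to 24 h, a difference of -2.28 (SE 0.11; limma adjusted p = 9.63e-20). P4HA1 was at 46.1, 83.7 and 153 TPM and at 167, 364 and 459 TPM, a difference of -1.95 (SE 0.10; limma adjusted p = 3.78e-19). Neither gene's groups overlapped. P4HA2 was at 0, 15.5 and 36.6 TPM and at 21.4, 43.6 and 63.8 TPM, a difference of -2.04 (SE 0.43; limma adjusted p = 0.000519). GAPDH passed here with -0.30 (SE 0.09; limma adjusted p = 0.0138), a call that was lost under at least 1 of 12 alternatives. SLC2A3 did not pass, at -0.15 (SE 0.11; limma adjusted p = 0.389), with 3118 TPM in the highest library of 4 to 8 h. PFKP differed by 0.63 (SE 0.12; limma adjusted p = 6.45e-05). Markers of other cell types moved in this comparison too. Of the 10 epithelial markers 9 were higher, with summed levels of 1177 to 2754 TPM at 4 to 8 h and 432 to 1709 TPM at 10 to 24 h. Of the 10 neuron markers 7 were lower, with sums of 190.3 to 345 TPM at 4 to 8 h and 317 to 539 TPM at 10 to 24 h. Of the 10 neural progenitor markers 5 were lower, with sums of 2102 to 3641 TPM at 4 to 8 h and 2995 to 4036 TPM at 10 to 24 h. Their part in the differences of the 38 genes was not tested.

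Change with the length of exposure was read between times 48 h apart, which keeps the low times from being set against the high ones. The 9 libraries of 60, 66 and 72 h were set against the 9 of 12, 18 and 24 h, called 60 to 72 h and 12 to 24 h here, with 14, 16, 20 and 22 h left out. At 60 to 72 h against 12 to 24 h, with the 3 low times on neither side, 10 of the 38 genes were higher and 3 lower, against 4.97% and 9.08% of all genes tested. At 54 h against 6 h, both low times, 3 were higher and 6 lower, against 3.47% and 3.48% of all genes tested. The 2 comparisons share no library. They called 6 of the 38 genes in the same direction (46.2% of the 13 called in the first and 66.7% of the 9 in the second) and 0 in opposite directions. Over all genes tested, 590 (3.85%) were called alike in both, which is 27.4% of those called in the first and 55.5% of those in the second, and 25 were called in opposite directions. Without the A1 libraries, 5 genes were called at 54 h against 6 h. These 6 were SLC2A1, P4HA1 and BNIP3L, which were higher, and SLC2A3, EGLN3 and PFKL, which were lower. Under at least 1 of 11 alternatives BNIP3L lost its call in both comparisons, EGLN3 at 54 h against 6 h and PFKL at 60 to 72 h, while SLC2A1, P4HA1 and SLC2A3 passed under all 11 in both.

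Markers of cell types changed between these times as well, and their part in the differences of the 38 genes was not tested. At 54 h against 6 h, 8 of 10 epithelial markers were lower, with sums of 449 to 506 TPM at 54 h and 1400 to 1424 TPM at 6 h. In the same comparison 7 of 10 neuron markers were higher, with sums of 405 to 437 TPM at 54 h and 320 to 345 TPM at 6 h, and of 10 neural progenitor markers 5 were higher and 1 lower, with sums of 3308 to 3587 TPM at 54 h and 3588 to 3641 TPM at 6 h. At 60 to 72 h against 12 to 24 h, 4 of 10 epithelial markers were lower, with sums of 464 to 759 TPM at 60 to 72 h and 432 to 1169 TPM at 12 to 24 h. There 4 of 10 neuron markers were higher, with sums of 225 to 577 TPM at 60 to 72 h and 317 to 539 TPM at 12 to 24 h, and of the neural progenitor markers 3 were higher and 2 lower, with FABP7 higher by 3.56. Of 6 mesodermal and smooth muscle markers tested, ACTA2 and COL1A1 were higher at 60 to 72 h, by 2.29 and 1.06, and MEOX1 lower, by -2.04.

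The 2 glucose transporters moved apart. SLC2A1 was at 355, 524 and 989 TPM at 60 to 72 h (lowest, median and highest library) and at 297, 326 and 374 TPM at 12 to 24 h, a difference of 0.75 (SE 0.12; limma adjusted p = 1.01e-05). At 54 h it was at 247, 250.5 and 280 TPM, against 88.1, 94.6 and 96.8 TPM at 6 h, a difference of 1.47 (SE 0.21; limma adjusted p = 2.29e-06). SLC2A3 was at 289, 815 and 1276 TPM at 60 to 72 h and at 964, 2094 and 2510 TPM at 12 to 24 h, a difference of -1.10 (SE 0.13; limma adjusted p = 7.96e-09). At 54 h it was at 263, 295 and 313 TPM, against 1242, 1414 and 1743 TPM at 6 h, a difference of -2.32 (SE 0.22; limma adjusted p = 1.38e-10). At 54 h all 3 libraries of SLC2A1 lay above all 3 of 6 h, and all 3 of SLC2A3 lay below.

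P4HA1 was at 168, 190 and 210 TPM at 54 h, against 47.7, 60.5 and 81.3 TPM at 6 h, a difference of 1.60 (SE 0.21; limma adjusted p = 3.44e-07), and its difference between 60 to 72 h and 12 to 24 h was 0.70. BNIP3L differed by 0.60 and 0.47 in the same order, EGLN3 by -1.30 and -0.74, and PFKL by -0.98 and -0.36. BNIP3 differed by -0.16 (SE 0.22) at 54 h and by -0.07 (SE 0.13) at 60 to 72 h and passed in neither.

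INSIG2, BHLHE40 and LOX were called in the later comparison only, where all 3 were higher, and whether the 2 comparisons differed was not tested. INSIG2 was at 104, 145 and 215 TPM at 60 to 72 h and at 32.6, 55.1 and 96.3 TPM at 12 to 24 h, without overlap, a difference of 1.36 (SE 0.17; limma adjusted p = 2.9e-08). BHLHE40 was at 0, 23.5 and 56.4 TPM and at 0, 1.88 and 16.8 TPM, a difference of 2.55 (SE 0.51; limma adjusted p = 0.000268), averaging 46.2 ± 15.0 TPM at 60 h, 22.2 ± 5.25 TPM at 66 h and, at 72 h, 12.3 ± 11.01 TPM (mean ± SD, n = 3 each). LOX was at 0, 2.81 and 7.57 TPM and at 0, 0 and 2.26 TPM, a difference of 1.35 (SE 0.32; limma adjusted p = 0.00201). ALDOA, GPI, PDK1 and ENO2 were higher by 0.57, 0.56, 0.43 and 0.38. HK2, NDRG1 and PFKP were called at 54 h against 6 h only, lower by -0.94, -2.21 and -1.24. The calls of BHLHE40, LOX, PDK1 and ENO2 at 60 to 72 h were each lost under at least 1 of 11 alternatives. Those of HK2 and NDRG1 at 54 h against 6 h were too. Without the 3 thin libraries, 21 of the 38 passed at 60 to 72 h in place of 13, and 2936 of all genes tested in place of 2150.

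**Figure D5:**
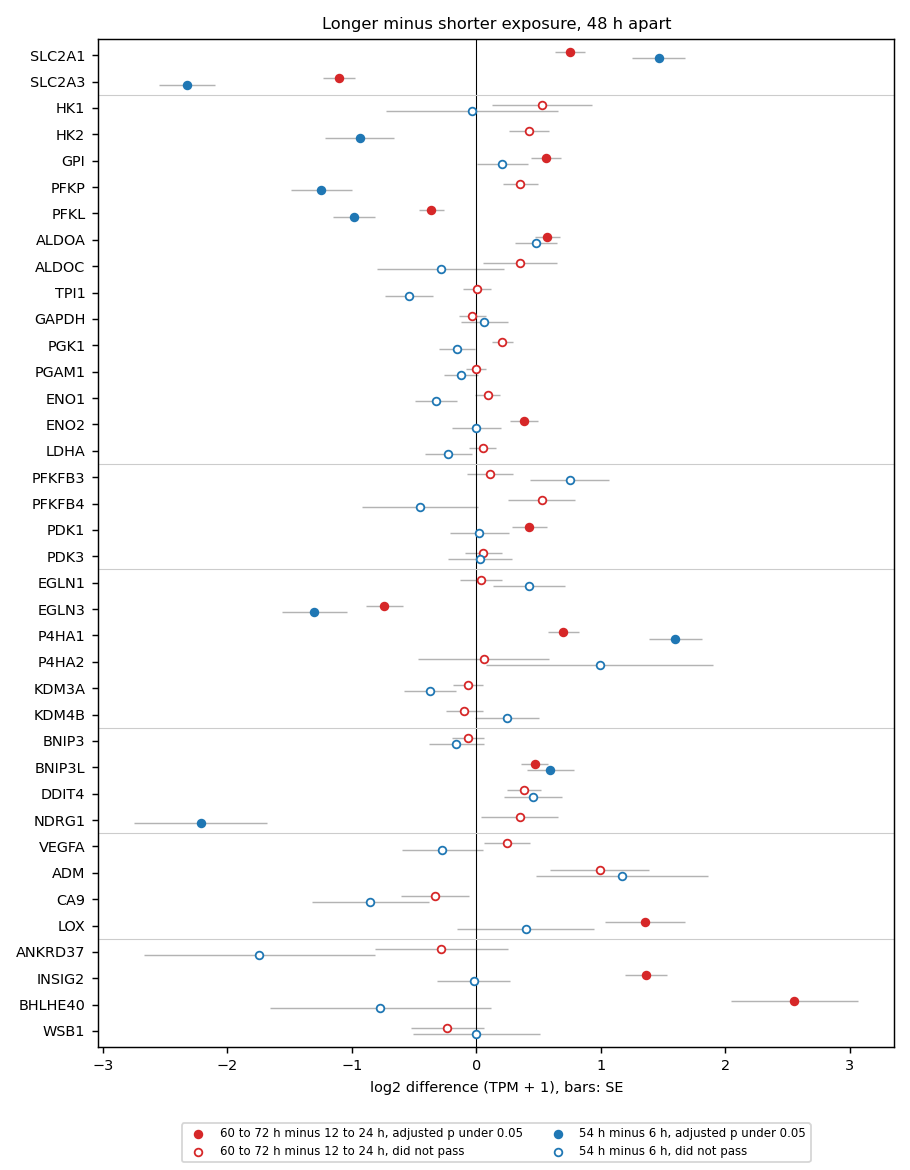
Points give the log2(TPM + 1) difference of 60 to 72 h minus 12 to 24 h (red; 12, 18 and 24 h) and of 54 h minus 6 h (blue) for each of the 38 genes, with bars for the SE and filled points for an adjusted p under 0.05. SLC2A1, P4HA1 and BNIP3L have both points filled above 0, and SLC2A3, PFKL and EGLN3 have both filled below 0.

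Of the 34 other hypoxia response genes, 7 were higher (20.6%) and 3 lower (8.82%) at 60 to 72 h. Of the 30 other genes of glucose metabolism 2 were higher (6.67%) and 6 lower (20.0%). Of all genes tested, 4.97% were higher and 9.08% lower, so the 8.82% and the 6.67% were near those shares. Among the 16 genes of the HIF machinery 2 were lower (12.5%), also near the share of all genes. HIF1A itself was at a lower level at 60 to 72 h, with 60.7, 203 and 253 TPM against 231, 275 and 343 TPM at 12 to 24 h, a difference of -0.65 (SE 0.15; limma adjusted p = 0.00154). Its 60.7 TPM was in 1 of the 9 later libraries. HMOX1 was at 0, 0 and 6.81 TPM at 60 to 72 h and at 16.6, 62.5 and 107 TPM at 12 to 24 h, a difference of -5.13 (SE 0.32; limma adjusted p = 2.78e-17). It was at 16.0, 22.2 and 25.2 TPM at 54 h, against 161, 192 and 196 TPM at 6 h. ENO3, the muscle enolase, was at 50.01, 72.3 and 130 TPM at 60 to 72 h and at 7.99, 16.7 and 31.8 TPM at 12 to 24 h, a difference of 2.10 (SE 0.28; limma adjusted p = 1.25e-07). LDHB, the lactate dehydrogenase subunit of oxidative tissues, was at 1875, 1924 and 2096 TPM at 54 h, against 3617, 3636 and 4159 TPM at 6 h, a difference of -0.95 (SE 0.19; limma adjusted p = 0.000587), while LDHA differed by -0.22 (SE 0.19; limma adjusted p = 0.678).

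A smooth curve over all 59 libraries, which does not follow changes as short as the low times, called 20 of the 38 genes, against 36.8% of all genes tested. Of these, 16 ended the curve higher than they began it and 4 (SLC2A3, PFKP, PFKL and EGLN3) lower, against 15.4% and 21.4% of all genes tested. By its fitted ends at 2 and 72 h, the curve gave the largest rise to BHLHE40, 3.07, followed by DDIT4 at 2.69 and P4HA1 at 2.63. The largest fitted fall was that of SLC2A3, -1.88. Fitted ends are not measured levels: for DDIT4 the fitted rise exceeded that from its mean at 2 h to its highest library, 1155 TPM. Of the 20 calls, 11 passed under all 14 alternatives, and that of BHLHE40 did not. Over the same course all 10 neuron markers were called higher, all 10 epithelial markers lower, and 8 of the 10 neural progenitor markers higher and 2 lower, with median differences of 2.33, -3.95 and 1.54, and their part was not tested. Leaving out 1 replicate label left 13 genes called without A1 and 12 without B1.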

How the data were processed

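Per the labels' protocols, messenger RNA was selected with oligo-dT from 100 ng of total RNA and amplified over 18 PCR cycles, and 30 libraries shared a lane as single reads of 51 bp. The deposited values are TPM. The submitters' processing notes list RSEM 1.2.3, Bowtie 0.12.8 and CASAVA 1.8.2 and the hg19 build. The sources used here do not give the gene annotation. RSEM apportions reads shared by paralogs and overlapping genes by estimation. The submitters removed 48 h B1, per the design text. The highest correlation between 2 libraries was 0.98.

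Values were analysed as log2(TPM + 1) for genes with at least 1 TPM in at least 3 libraries, with limma 3.58.1 in R 4.3.3, an intensity trend and Benjamini-Hochberg adjustment. The comparison of 6, 30 and 54 h used 35 libraries and a natural spline with 4 df, the course an F-test of such a spline over 59 libraries, and all others a fit of 20 time-point means over 59 libraries. Figures were drawn with matplotlib 3.10.9. The tests were tried on simulated data.

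The 38 genes, the other lists, the low times and the comparisons were chosen with earlier results of these data known. All 38 could be named. Of each other list, up to 4 genes with the largest differences past the threshold and 2 that did not pass could be named. Alternatives varied the pseudocount, filter, scaling, spline, replicate block and the libraries or times kept. Promoter windows are from RefSeq, GRCh38.p14.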

Additional observations from a re-analysis of the deposited data

Results flagged for a closer look

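DDIT4 was the 1 gene of the 38 whose change at 54 h differed from its change at 30 h by a test of that difference. The change at 54 h against 48 and 60 h was -2.81, that at 30 h against 24 and 36 h was -1.37, and the difference between them was -1.44 on the log2(TPM + 1) scale (SE 0.29; limma adjusted p = 0.0327). All 3 libraries of 54 h lay below all 3 of 30 h. The call passed in 7 of 11 alternatives. No single time point has more than 3 libraries, so none was examined for a library far from the others.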

How the results depend on the processing

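The count of the 38 genes called at 6, 30 and 54 h was 28, and 21 to 30 with 1 replicate label left out. The course called 20 genes, and 12 to 15 with a label left out. At 30 h the count was 24, and 16 to 20 with a label left out, at 54 h it was 24, and 13 to 21, and at 6 h it was 11, and 7 to 8. For 54 h against 6 h it was 9, and 5 to 8, and for 4 to 8 h it was 25, and 19 to 21. For 60 to 72 h it was 13, and 11 with any label left out, but 21 without the 3 libraries with under 10000 genes. For the change at 54 h minus that at 30 h it was 1, and 0 with a label left out or with a pseudocount of 0.1. The 48 h group then has 1 library when A1 or A2 is left out, which is assumed to vary like the others.

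Over all genes tested, leaving out a label gave 807 to 1628 calls at 6, 30 and 54 h in place of 2150, 3232 to 5317 for the course in place of 5629, 184 to 497 at 30 h in place of 688, 215 to 1164 at 54 h in place of 1278 and 41 to 147 at 6 h in place of 253. It gave 368 to 864 for 54 h against 6 h in place of 1063, 1639 to 1932 for 4 to 8 h in place of 2734, 933 to 2076 for 60 to 72 h in place of 2150 and 0 to 5 for the change at 54 h minus that at 30 h in place of 6. Without the 3 thin libraries the counts were 3527 at 6, 30 and 54 h, 1707 at 30 h, 2598 at 54 h, 610 at 6 h, 1847 for 54 h against 6 h and 18 for the change at 54 h minus that at 30 h, where a pseudocount of 0.1 gave 3 and quantile normalization 10. At 6, 30 and 54 h a plain difference of time-point means gave 3578, leaving out 30 h gave 755 and leaving out 54 h gave 630. Fewer samples enter where libraries are left out, and the cause of the other shifts was not tested.

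The end-to-start difference of the course changed sign for GAPDH (-0.29), PGAM1 (-0.16) and KDM4B (-0.13) with a spline of 6 df and for VEGFA (-0.13) without 6, 30 and 54 h, and none of the 4 was called. Replicate labels showed no strong pairing of libraries: deviations of libraries with the same label correlated with a median r of 0.0049, and 8 of 551 such pairs were over 0.1. However, 32 of 59 libraries correlated best on average with their own label, more than an even share among the 3 labels. A weak pairing is therefore possible and was not tested. A replicate block kept the count of the 38 genes in each comparison, 28 at 6, 30 and 54 h, where it gave 2144 of all genes. Without 42 h B1 and 72 h A2, an alternative chosen after seeing the data, 12 genes did not overlap. Depth is unknown, so no detection limit was set.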

Other observations

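Between the low times, 11 of the 38 genes had a higher mean at the first step after a low time than at the last step before the next, at 12 over 24 h, 36 over 48 h and 60 over 72 h alike, against 20.0% of all genes tested, which is close to the 28.9% of the 38. PFKFB4 averaged 56.2 TPM after 12 h, 62.5 TPM after 18 h and 40.9 TPM after 24 h, then 87.4 TPM after 36 h, 86.6 TPM after 42 h and 50.5 TPM after 48 h, and then 131 TPM after 60 h, 95.9 TPM after 66 h and 39.7 TPM after 72 h. PDK1 averaged 159 TPM after 36 h, 122 TPM after 42 h, 41.6 TPM after 48 h and 30.3 TPM after 54 h, so that 48 h stood nearer to 54 h than to 36 h. HK2 averaged 200.5 TPM after 60 h, 143 TPM after 66 h and 97.4 TPM after 72 h. These are means of 2 libraries at 48 h and of 3 at the other times, and the pattern was noticed in these data and not tested.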
